A study of Mus musculus with 24 samples.

Results

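The Eph receptors, ephrins, semaphorins, plexins and neuropilins are cell-surface and secreted guidance molecules, and their transcripts were followed in mouse embryonic stem cells (mESCs) on soft and stiff substrates after removal of 1 of the inhibitors of 2i+LIF. The members were taken by symbol alone: Epha and Ephb genes with a number, Efna and Efnb genes, Sema genes, Plxn genes, *Nrp1* and *Nrp2*. This set was chosen with earlier results of these data known. The rule found 53 members, among 35022 genes in the counts of the PD03 removal experiment and among 48709 genes in those of the CHIRON removal experiment. They comprised 9 EphA receptors, 5 EphB receptors, 5 ephrin-A ligands, 3 ephrin-B ligands, 20 semaphorins, 9 plexins and 2 neuropilins. E14 mESCs, a feeder-free line labelled 129m wt, had been grown for 12 h in 2i+LIF on fibronectin-coated StemBond hydrogels, a soft and a stiff version of a polyacrylamide gel with firmly tethered matrix. The medium of all groups held LIF, 1 µM PD03 (a MEK inhibitor, which blocks ERK signalling) and 3 µM CHIRON (a GSK3 inhibitor, which stabilises β-catenin) until 0 h. The groups at 0 h were collected in 2i+LIF, and the others after 2 h or 12 h in CHIRON+LIF (PD03 removal) or in PD03+LIF (CHIRON removal). Each of the 2 experiments had 6 groups of substrate and time with 2 libraries each. The library CHIRON removal, stiff, 2 h, replicate 1 held 171333 counts and was left out, so 23 of 24 libraries were used and that group had 1. All groups are 1 cell line, and the study describes its sequencing experiments as performed in triplicate, whereas 2 libraries per group were analysed here. No source used here says whether the libraries of a group came from separate cultures, so that the p-values below measure the spread between libraries, which may be technical.

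Eph receptors are the largest family of receptor tyrosine kinases. EphA receptors mostly bind ephrin-A ligands, which are held in the membrane by a lipid anchor, and EphB receptors mostly bind ephrin-B ligands, which span it, so that both cells in contact can signal. Semaphorins are secreted or membrane-bound proteins that signal through plexins, and the secreted class 3 semaphorins mostly need a neuropilin as co-receptor. Both systems act on small GTPases, the cytoskeleton and adhesion, and are best known for repelling growing axons and for keeping groups of embryonic cells apart.

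Library totals were 16222196 to 26442153 counts in PD03 removal (median 19645600). In CHIRON removal, the 11 libraries held 19393787 to 31111260 counts (median 22984299). The members took between 0.112% and 0.131% of the protein-coding counts of a library. As a check of the medium changes, 12 h after PD03 removal the ERK targets *Dusp6* and *Etv4* had risen on both substrates, and 12 h after CHIRON removal the β-catenin targets *Axin2*, *Sp5* and *T* had fallen on both, with values given with the pathway lists. Not all check genes went this way. After PD03 removal *Etv5* ranged over 598 to 615 CPM at 0 h and 557 to 580 CPM at 12 h. *Fos* ranged over 1.52 to 2.47 CPM at 0 h, 6.28 to 13.7 CPM at 2 h and 1.48 to 1.76 CPM at 12 h. *Etv4* also fell after CHIRON removal. All 6 markers of embryonic stem cells were present, at a summed level of between 3740 and 4650 CPM in every library, where CPM is the count scaled to the TMM-adjusted library size of protein-coding genes. In PD03 removal their sum lay between 4313 and 4489 CPM at 0 h and between 3862 and 4014 CPM at 12 h, and 4 of the 6 fell on each substrate. For CHIRON removal the sum lay between 3937 and 4130 CPM at 0 h and between 4346 and 4570 CPM at 12 h, and 2 rose and 2 fell on soft and 4 rose and 2 fell on stiff substrates. *Nanog*, a pluripotency factor, ranged over 1070 to 1130 CPM at 0 h and 763 to 861 CPM at 12 h of PD03 removal, against 509 to 597 CPM and 845 to 972 CPM for CHIRON removal. Of the 5 mesoderm and primitive streak markers, *T* and *Eomes* moved with the removals. Their summed level was 15.6 to 18.9 CPM at 0 h and 46.0 to 56.3 CPM at 12 h after PD03 removal, against 19.5 to 22.4 CPM and 9.13 to 12.0 CPM for CHIRON removal. The 5 neural markers summed to 52.6 to 62.5 CPM at 0 h and 81.8 to 88.3 CPM at 12 h of CHIRON removal. For PD03 removal the sum was 64.3 to 80.1 CPM and 60.0 to 64.7 CPM. Most of this sum was *Tubb3* in both experiments, so it does not stand for all 5. At 12 h, 2 of the 5 had risen on each substrate after CHIRON removal, and 1 had risen and 1 fallen after PD03 removal. In CHIRON removal *Sox1* ranged over 11.4 to 15.4 CPM at 0 h and 24.5 to 28.8 CPM at 12 h, and *Map2* did not rise. In PD03 removal *Tubb3* ranged over 54.5 to 70.6 CPM at 0 h and 48.3 to 51.8 CPM at 12 h. *Sox1* ranged there over 2.5 to 3.11 CPM and 3.51 to 6.19 CPM. The markers of primitive endoderm (6 markers) and fibroblasts (5 markers) summed to between 2.28 and 10.9 CPM in any library. The 4 endothelial markers summed to between 157 and 206 CPM, almost all of it *Pecam1* (145 to 195 CPM), with at most 7 counts of *Cdh5*. No marker was at 0 counts in every library. The part of these markers in the results below was not tested. In bulk RNA, fewer cells of a type and less RNA per cell cannot be told apart.

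At 0 h, the mESCs held a small set of these genes at a high level. Levels between genes are given as CPM per kb of exon, as mean ± SD over the 4 libraries at 0 h, soft and stiff together. In PD03 removal, *Epha4* was highest, at 39.2 ± 0.966, and its libraries (38.2 to 40.3) did not overlap those of any other member. The next members were *Ephb4* at 25 ± 1.5, *Epha2* at 24.1 ± 1.22 and *Sema4b* at 23.4 ± 1.01, whose libraries overlapped each other, then *Plxnb2* at 12.8 ± 0.229, *Plxna1* at 11.1 ± 0.956 and *Efna4* at 11 ± 0.531, of which the last 2 overlapped. In CHIRON removal, the order began with *Plxna1* at 29.8 ± 2.13 and *Epha4* at 26.2 ± 1.42, which overlapped, then *Sema4b* at 22 ± 0.672, *Plxnb2* at 15.4 ± 0.643, *Epha2* at 13.9 ± 1.03 and *Ephb4* at 12.9 ± 1.14, of which the libraries of neighbours from *Plxnb2* on overlapped. The 5 highest members held 67.7% of the summed level per kb in PD03 removal and 61.5% in CHIRON removal, and 8 members were among the 10 highest in both. Among the ligands *Sema4b* was highest in both experiments. Among the ephrins it was *Efna4*, and among the ephrin-B ligands *Efnb3*, at 2.14 ± 0.356 in PD03 removal and at 1.57 ± 0.257 in CHIRON removal.

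**Figure D1:**
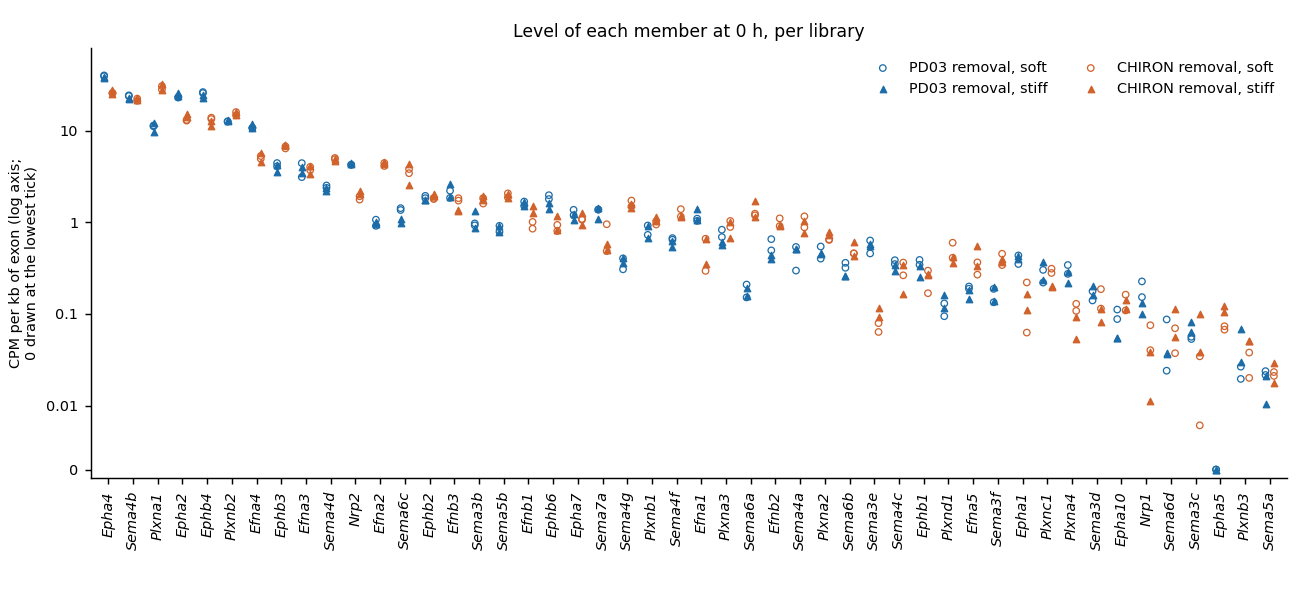
Level at 0 h of each member tested in either experiment, in CPM per kb of exon on a log axis, with 1 point per library (circles soft, triangles stiff, blue PD03 removal, orange CHIRON removal). *Epha4*, *Plxna1*, *Sema4b*, *Plxnb2*, *Epha2* and *Ephb4* lie at or near the top in both experiments, and the library values of a member lie close together at high levels and spread out at low ones.

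The 2 experiments did not start from the same levels, although the medium at 0 h was the same. Of the 45 members tested in both, 19 were over 2 times apart at 0 h, and 11 of these were higher in CHIRON removal. *Sema6a* was 7.54 times higher there and *Plxna1* 2.67 times higher, whereas *Sema3e* was at 0.159 times its level in PD03 removal. *Epha5* had at most 1 count in any library of PD03 removal and was listed at 0 in 9 of 12, whereas it had 14 to 38 counts in CHIRON removal. No sample is shared by the experiments, so levels are compared within an experiment and only responses are set side by side across both. Members with too few counts to be tested in either experiment were *Epha3*, *Epha6*, *Epha8*, *Sema3a* and *Sema3g*, each with between 0 and 9 counts per library. A further 3, *Epha5*, *Epha10* and *Plxnb3*, were tested in CHIRON removal only. A library with no count of a gene still allows a level of up to 3 counts, and these limits cover counting error only.

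At 12 h after PD03 removal, 17 of 45 members tested (37.8%) had changed on soft substrates and 29 (64.4%) on stiff substrates, beside 29.4% and 38.4% of all 13423 genes tested (edgeR's quasi-likelihood test, Benjamini-Hochberg adjustment over all genes, threshold 0.05). Of these, 14 rose on soft substrates (14.1% of all genes rose) and 21 on stiff substrates (18.5%), and the 14 were among the 21. On soft substrates 3 fell (15.3%) and on stiff substrates 8 (19.9%), of which *Epha4* and *Ephb1* fell on both. The median log2 fold change of the members was 0.26 on soft and 0.36 on stiff substrates, beside a median near 0 over all genes. At 12 h after CHIRON removal, 15 of 48 members tested (31.2%) had changed on soft and 17 (35.4%) on stiff substrates, beside 17.8% and 16.8% of all 14615 genes. Here 9 rose and 6 fell on soft substrates (9.18% and 8.63% of all genes), and 10 rose and 7 fell on stiff substrates (8.46% and 8.33%). Of these, 8 rose and 5 fell on both. The share of all genes called in 1 direction on both substrates was not counted in either experiment. In each of these calls at 12 h, the libraries of the groups compared did not overlap. With 2 libraries per group and members already called by the test, this adds no support. The share of all genes without overlap was not counted. Statements on overlap below describe the libraries and are no test. Some counts rested on single libraries. Without replicate 1 of soft at 0 h, 10 members passed on soft substrates after PD03 removal, and without replicate 1 of stiff at 0 h or of stiff at 12 h, 18 passed on stiff substrates. After CHIRON removal, 9 passed on soft substrates without replicate 2 of soft at 12 h. With the shallow left-out library in the fit, 4 members passed on soft (*Efna2*, *Epha7*, *Nrp2* and *Sema4a*) and 4 on stiff substrates (*Epha7*, *Nrp2*, *Sema4a* and *Sema6a*), so that the other calls of CHIRON removal hold for the 11 libraries alone. A call on 1 substrate alone does not show a difference between substrates, and the difference in response between substrates was not called for any member, as given with that comparison. Error values after a log2 fold change are standard errors, and each group had 2 libraries unless stated. The spread between libraries was larger in CHIRON removal, with a biological coefficient of variation of 0.0797 against 0.0386 in PD03 removal, so that smaller changes could pass in the latter. In CHIRON removal it was uneven. The chi-square per degree of freedom between the 2 libraries of a group was 65.3 for soft at 12 h and 25.7 for stiff at 0 h. It was 6.35 and 11.4 for soft at 0 h and 2 h, and 8.26 for stiff at 12 h. The soft libraries at 12 h held 31111260 and 19393787 counts, 85.3% and 78.0% of them protein-coding. The spread was estimated over all groups of an experiment together.

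The 5 members shown first had mean 12 h responses of opposite sign after the removals. They were chosen by that, by a call at 12 h in each experiment and by a called difference between removals. They were the neuropilin *Nrp2*, the receptors *Epha7*, *Ephb2* and *Ephb4*, and the ligand *Efnb1*. *Efnb1* was called on stiff alone after PD03 removal and on soft alone after CHIRON removal. The fall of *Ephb4* was called on stiff alone. DESeq2 lost the calls of *Ephb2*, *Ephb4* and *Efnb1* on stiff substrates after PD03 removal. It also lost that of *Ephb2* on soft substrates after CHIRON removal. To let their promoters be read beside the values, the 250 bases before the annotated start are printed 5′ to 3′ on the strand of the gene (RefSeq, GRCm38.p6), and the capitals in *Nrp2* mark CTTTGAT, the letters searched for TCF/LEF, the factors through which β-catenin acts.
Nrp2 (chr1:62703067-62703316, plus strand): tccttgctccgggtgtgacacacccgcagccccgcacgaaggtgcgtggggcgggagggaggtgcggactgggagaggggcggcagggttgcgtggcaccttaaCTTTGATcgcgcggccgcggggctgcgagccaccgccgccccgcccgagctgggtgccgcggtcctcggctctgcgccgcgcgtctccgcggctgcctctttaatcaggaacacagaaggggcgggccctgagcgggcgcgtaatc
Epha7 (chr4:28812881-28813130, plus strand): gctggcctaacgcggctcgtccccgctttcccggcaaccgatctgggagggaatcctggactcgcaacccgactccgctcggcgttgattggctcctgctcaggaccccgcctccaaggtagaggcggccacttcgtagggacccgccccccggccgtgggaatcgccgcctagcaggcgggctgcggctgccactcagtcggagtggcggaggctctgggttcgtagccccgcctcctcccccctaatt
Ephb2 (chr4:136836013-136836262, minus strand): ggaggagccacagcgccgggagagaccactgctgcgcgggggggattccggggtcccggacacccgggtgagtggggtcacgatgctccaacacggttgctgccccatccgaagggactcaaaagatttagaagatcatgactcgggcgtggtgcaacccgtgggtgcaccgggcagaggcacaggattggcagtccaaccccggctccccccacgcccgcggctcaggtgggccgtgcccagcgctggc
Ephb4 (chr5:137349859-137350108, plus strand): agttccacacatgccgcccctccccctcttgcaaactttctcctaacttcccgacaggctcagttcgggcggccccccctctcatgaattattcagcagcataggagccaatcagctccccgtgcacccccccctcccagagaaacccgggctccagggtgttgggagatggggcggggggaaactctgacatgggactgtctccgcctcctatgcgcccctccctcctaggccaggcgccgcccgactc
Efnb1 (chrX:99135811-99136060, plus strand): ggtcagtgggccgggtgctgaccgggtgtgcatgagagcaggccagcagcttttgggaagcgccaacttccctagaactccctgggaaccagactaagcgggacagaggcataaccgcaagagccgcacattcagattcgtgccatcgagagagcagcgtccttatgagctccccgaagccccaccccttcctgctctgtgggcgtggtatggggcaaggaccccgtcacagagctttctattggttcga
The match in *Nrp2* begins 146 bases before the start. Of the 32851 promoter windows of all genes, from 250 bases before to 50 after a start, 3.73% hold CTTTGAT on either strand. Of the 61 windows of members 1.64% do, which is 1 of the 47 members with a window. The ETS letters CCGGAAG, which factors downstream of ERK can bind, lie in 8.86% of all windows and in 3.28% of those of members (*Ephb6* and *Plxnb1*). The AP-1 letters TGACTCA lie in 5.2% of all windows and in 3.28% of those of members (*Sema4c* and *Sema6b*). Each share was lower in the members than in all windows. A match is a run of letters and not a bound site, and the median GC content was 64.0% in the 61 windows of members and 52.7% in all.

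*Nrp2*, the co-receptor of class 3 semaphorins such as Sema3F, measured 50.4 and 50.5 CPM at 0 h, then 62.2 and 58.4 at 2 h, then 58.9 and 58.5 at 12 h on soft substrates after PD03 removal. On stiff substrates it measured 53.1 and 50.9 CPM at 0 h, then 61.7 and 65.2 at 2 h, then 64.3 and 65.6 at 12 h, so that all 8 libraries after the removal lay above the 4 at 0 h. The log2 fold change at 12 h was 0.22 ± 0.07 (adjusted p = 0.0129) on soft and 0.32 ± 0.07 (adjusted p = 0.000241) on stiff substrates. After CHIRON removal it measured 21 and 22.9 CPM at 0 h, then 20.9 and 24.7 at 2 h, then 10.8 and 10.8 at 12 h on soft substrates. Stiff substrates gave 24 and 26.1 CPM at 0 h, then 25.5 at 2 h, then 12 and 9.65 at 12 h. For *Nrp2*, both 12 h libraries lay below those at 0 h on each substrate. The level at 12 h was 0.491 and 0.433 times that at 0 h on soft and stiff substrates, with log2 fold changes of -1.02 ± 0.13 (adjusted p = 2.24e-05) and -1.21 ± 0.13 (adjusted p = 3.93e-06). The call on soft substrates after PD03 removal was lost without soft 0 h replicates 1 or 2 or soft 12 h replicates 1 or 2 (adjusted p between 0.0549 and 0.0642), and the other 3 were kept without each library.

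*Epha7*, an EphA receptor of early neural tissue, measured 11.8 and 13.6 CPM at 0 h, then 17.5 and 15.3 at 2 h, then 17.5 and 19.5 at 12 h on soft substrates after PD03 removal, and 12.3 and 10.5 CPM at 0 h, then 14.3 and 14.5 at 2 h, then 21.4 and 18.4 at 12 h on stiff substrates. For *Epha7*, both 12 h libraries lay above those at 0 h on each substrate. It rose by 12 h, with log2 fold changes of 0.55 ± 0.12 (adjusted p = 0.00115) and 0.81 ± 0.12 (adjusted p = 6.5e-06). After CHIRON removal the levels were 10.8 and 10.6 CPM at 0 h, then 10.2 and 9.54 at 2 h, then 3.9 and 3.58 at 12 h on soft substrates. The values on stiff substrates were 9.22 and 12.4 CPM at 0 h, then 12.09 at 2 h, then 2.62 and 3.41 at 12 h. All 4 libraries at 12 h were below every earlier library, and the log2 fold changes were -1.50 ± 0.19 (adjusted p = 1.62e-05) and -1.85 ± 0.20 (adjusted p = 2.83e-06). All 4 calls of *Epha7* were kept without each library, and both after CHIRON removal also with the left-out library in the fit.

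*Ephb2*, a receptor for B ephrins known as a β-catenin target in the intestine, changed little in size but in opposite ways. After PD03 removal it measured 23.2 and 24.6 CPM at 0 h, then 20.7 and 22.2 at 2 h, then 29.2 and 29.7 at 12 h on soft substrates. Its libraries on stiff substrates held 22.3 and 22 CPM at 0 h, then 22.9 and 21.6 at 2 h, then 27.2 and 26.1 at 12 h. *Ephb2* groups did not overlap on either substrate, with 12 h the higher. At 12 h, the fitted log2 fold changes were 0.30 ± 0.09 (adjusted p = 0.0101) and 0.27 ± 0.09 (adjusted p = 0.0216). After CHIRON removal it measured 23.4 and 22.7 CPM at 0 h, then 29.1 and 25.1 at 2 h, then 17.9 and 18.9 at 12 h on soft substrates. For stiff substrates the levels were 25.6 and 24.4 CPM at 0 h, then 28.9 at 2 h, then 17.6 and 17.1 at 12 h. *Ephb2* groups did not overlap on either substrate, with 12 h the lower. By 12 h the log2 fold changes were -0.32 ± 0.11 (adjusted p = 0.0495) and -0.53 ± 0.11 (adjusted p = 0.00257). Of these calls, that on stiff substrates after CHIRON removal was kept without each library. The others rested on single libraries. For PD03 removal they were lost without soft 0 h replicate 1 or soft 12 h replicate 2 (adjusted p between 0.0618 and 0.0894) on soft and without stiff 0 h replicates 1 or 2 or stiff 12 h replicates 1 or 2 (adjusted p between 0.0502 and 0.144) on stiff substrates. For CHIRON removal on soft substrates the call was lost in 10 of 11 fits that each left out 1 library (adjusted p between 0.0515 and 0.267), all but the fit without soft 2 h replicate 2.

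*Ephb4*, the receptor of ephrin-B2, was among the highest members at 0 h. After PD03 removal it measured 120.0 and 123 CPM at 0 h, then 102 and 106 at 2 h, then 106 and 115 at 12 h on soft substrates. On stiff substrates it stood at 114 and 107 CPM at 0 h, then 102 and 96 at 2 h, then 102 and 97.8 at 12 h. *Ephb4* was lower in every 12 h library than at 0 h on the same substrate. The log2 fold change at 12 h was -0.15 ± 0.06 (adjusted p = 0.0404) on stiff substrates and -0.14 ± 0.06 (adjusted p = 0.0522), which did not pass, on soft substrates. The levels after CHIRON removal were 62.4 and 64.7 CPM at 0 h, then 62.4 and 63.4 at 2 h, then 79.1 and 82.6 at 12 h on soft substrates. The stiff libraries measured 59.5 and 52.5 CPM at 0 h, then 59.6 at 2 h, then 78.3 and 83 at 12 h. *Ephb4* was higher in every 12 h library than at 0 h on the same substrate. It rose by a log2 change of 0.35 ± 0.08 (adjusted p = 0.00718) and 0.53 ± 0.08 (adjusted p = 0.000234). The fall after PD03 removal was lost without stiff 0 h replicate 1 or stiff 12 h replicates 1 or 2 (adjusted p between 0.07 and 0.266), and the rise on soft substrates without soft 0 h replicate 1 or soft 12 h replicate 2 (adjusted p between 0.0507 and 0.0521).

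*Efnb1*, a transmembrane ephrin that sets boundaries between cells in the embryo, measured 5.23 and 5.83 CPM at 0 h, then 4.63 and 5.57 at 2 h, then 4.4 and 5.99 at 12 h on soft substrates after PD03 removal. Stiff substrates gave 5.78 and 5.2 CPM at 0 h, then 3.78 and 4.53 at 2 h, then 4.03 and 3.46 at 12 h. For *Efnb1*, the 12 h libraries lay below those at 0 h on stiff substrates and overlapped them on soft. It fell on stiff substrates, at a log2 change of -0.54 ± 0.21 (adjusted p = 0.0425), and its libraries on soft substrates overlapped, at -0.08 ± 0.19 (adjusted p = 0.787). The CHIRON removal libraries measured 3.49 and 2.95 CPM at 0 h, then 4.14 and 4.77 at 2 h, then 6.6 and 7.17 at 12 h on soft substrates. The values on stiff substrates were 5.15 and 4.35 CPM at 0 h, then 3.52 at 2 h, then 7.34 and 6.82 at 12 h. For *Efnb1*, both 12 h libraries lay above those at 0 h on each substrate. The rise on soft substrates was a log2 change of 1.09 ± 0.20 (adjusted p = 0.000905), and the value on stiff substrates, 0.58 ± 0.20 (adjusted p = 0.054), missed the threshold. The fall on stiff substrates after PD03 removal was lost without stiff 0 h replicates 1 or 2 or stiff 12 h replicates 1 or 2 (adjusted p between 0.0702 and 0.217), whereas the rise on soft substrates after CHIRON removal was kept without each library.

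**Figure D2:**
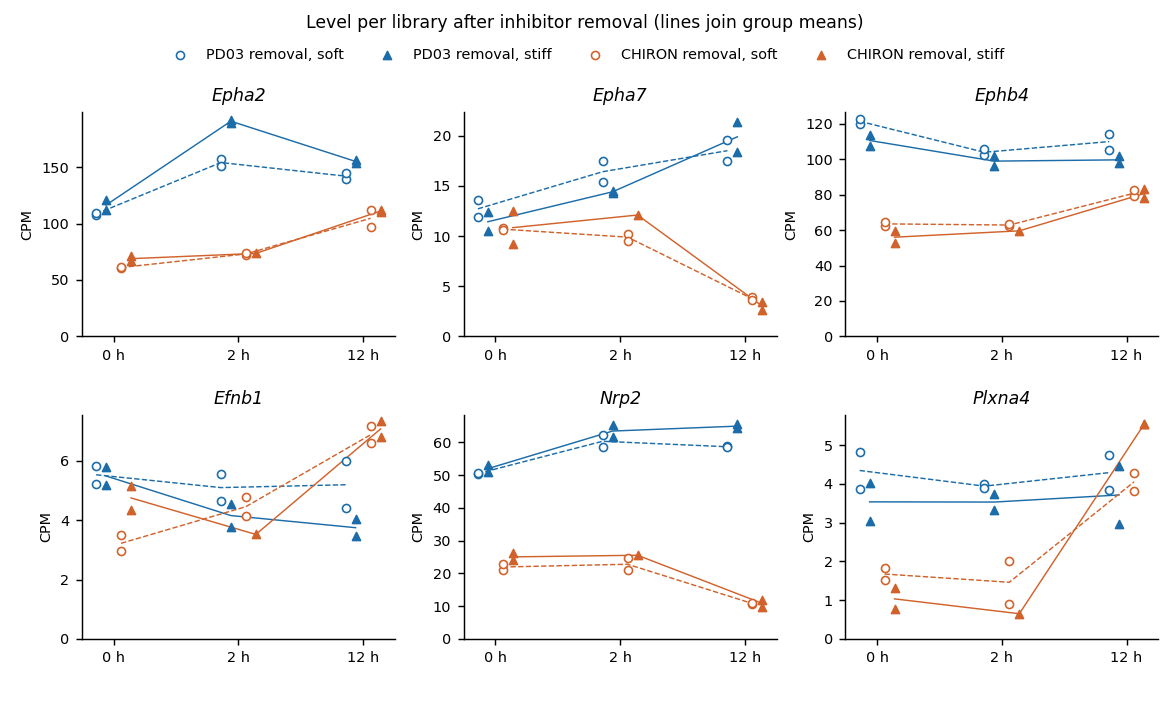
Levels in CPM at 0 h, 2 h and 12 h of *Epha2*, *Epha7*, *Ephb4*, *Efnb1*, *Nrp2* and *Plxna4*, with 1 point per library (circles and dashed lines soft, triangles and full lines stiff, blue PD03 removal, orange CHIRON removal) and lines through group means. *Epha7* and *Nrp2* part by 12 h, above their 0 h libraries after PD03 removal and below them after CHIRON removal, *Epha2* lies above its 0 h libraries at 12 h in both experiments, and *Plxna4* does so in CHIRON removal.

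Among the EphA receptors, *Epha1* rose most after PD03 removal. On soft substrates it measured 1.38 and 1.71 CPM at 0 h, then 2.28 and 1.99 at 2 h, then 8.94 and 8.14 at 12 h, and on stiff substrates 1.69 and 1.57 CPM at 0 h, then 2.54 and 2.09 at 2 h, then 9.86 and 10.5 at 12 h. All 4 libraries at 12 h lay above every earlier library. The ratio of the mean at 12 h to that at 0 h was 5.52 and 6.23, with log2 fold changes of 2.46 ± 0.22 (adjusted p = 8.67e-10) and 2.64 ± 0.21 (adjusted p = 4.78e-11). After CHIRON removal it ranged from 0.246 to 0.867 CPM (4 to 20 counts) and was not called, at a log2 change of -1.11 ± 0.73 (adjusted p = 0.336) and -1.04 ± 0.76 (adjusted p = 0.399). Exons of *Epha1* share 6.01% of their length with exons of *Zyx* on the opposite strand, and how the counting treated strand was not stated.

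*Epha2*, the EphA receptor best known in embryonic stem cells and epithelia, rose after both removals. After PD03 removal it measured 108 and 109 CPM at 0 h, then 157 and 151 at 2 h, then 139 and 145 at 12 h on soft substrates. Its libraries on stiff substrates held 121 and 112 CPM at 0 h, then 189.5 and 192 at 2 h, then 157 and 154 at 12 h. *Epha2* groups did not overlap on either substrate, with 12 h the higher. The libraries at 2 h were the highest on each substrate, and those at 12 h lay between those at 0 h and 2 h. Log2 fold changes at 12 h were 0.39 ± 0.05 (adjusted p = 1.12e-06) and 0.42 ± 0.05 (adjusted p = 1.92e-07). After CHIRON removal it measured 60.5 and 61.6 CPM at 0 h, then 72.4 and 73.8 at 2 h, then 97.2 and 112 at 12 h on soft substrates. For stiff substrates the levels were 70.9 and 66.9 CPM at 0 h, then 73.6 at 2 h, then 110.0 and 112 at 12 h, so that it was highest at 12 h. By 12 h the log2 fold changes were 0.78 ± 0.08 (adjusted p = 3.02e-06) and 0.69 ± 0.08 (adjusted p = 1.08e-05). All 4 calls were kept without each library.

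*Epha4*, a receptor for both classes of ephrin and the highest member per kb at 0 h of PD03 removal, fell there. It measured 319 and 325 CPM at 0 h, then 299 and 304 at 2 h, then 259 and 267 at 12 h on soft substrates. On stiff substrates it stood at 308 and 311 CPM at 0 h, then 284 and 303 at 2 h, then 245 and 244 at 12 h. For *Epha4*, both 12 h libraries lay below those at 0 h on each substrate. Soft and stiff log2 fold changes were -0.29 ± 0.05 (adjusted p = 1.41e-05) and -0.34 ± 0.05 (adjusted p = 1.03e-06), both kept without each library. In CHIRON removal its libraries ranged from 188 to 228 CPM, with overlapping groups and log2 fold changes of -0.01 ± 0.08 (adjusted p = 0.952) and -0.02 ± 0.08 (adjusted p = 0.905). The remaining EphA receptors tested, *Epha5* (0.75 to 2.06 CPM) and *Epha10* (0.637 to 2.68 CPM), were tested in CHIRON removal and were not called.

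*Ephb1*, a low EphB receptor, fell after both removals. After PD03 removal it measured 2.42 and 2.73 CPM at 0 h, then 3.28 and 2.07 at 2 h, then 0.825 and 1.63 at 12 h on soft substrates. The stiff libraries measured 1.75 and 2.35 CPM at 0 h, then 1.17 and 2.16 at 2 h, then 0.72 and 1.07 at 12 h. *Ephb1* groups did not overlap on either substrate, with 12 h the lower. The changes at 12 h were, on the log2 scale, -1.05 ± 0.36 (adjusted p = 0.0288) and -1.22 ± 0.41 (adjusted p = 0.0187). Levels after CHIRON removal were 1.18 and 2.08 CPM at 0 h, then 1.64 and 2.25 at 2 h, then 0.337 and 0.256 at 12 h on soft substrates. Stiff substrates gave 1.84 and 1.9 CPM at 0 h, then 1.44 at 2 h, then 0.308 and 0.586 at 12 h. *Ephb1* was lower in every 12 h library than at 0 h on the same substrate. It fell, at a log2 change of -2.40 ± 0.51 (adjusted p = 0.00312) and -2.06 ± 0.49 (adjusted p = 0.00695). None of the 4 calls was kept without each library. After PD03 removal they were lost without soft 0 h replicates 1 or 2 or soft 12 h replicate 1 (adjusted p between 0.0639 and 0.289) and without stiff 0 h replicate 2 or stiff 12 h replicate 1 (adjusted p between 0.163 and 0.175), and after CHIRON removal without soft 0 h replicate 2 (adjusted p = 0.0589) and without stiff 12 h replicate 1 (adjusted p = 0.0845).

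*Ephb3*, like *Ephb2* a known β-catenin target in the intestine, measured 44.9 and 42.7 CPM at 0 h, then 45.6 and 42.2 at 2 h, then 45.2 and 42.4 at 12 h on soft substrates in CHIRON removal. The values on stiff substrates were 47 and 46.9 CPM at 0 h, then 47 at 2 h, then 39.5 and 37.3 at 12 h. Groups of 0 h and 12 h overlapped on soft substrates, and on stiff the 12 h libraries were below. It fell on stiff substrates, at a log2 change of -0.29 ± 0.09 (adjusted p = 0.0334), and the value on soft substrates was 0.00 ± 0.09 (adjusted p = 0.995). This call was lost without soft 0 h replicate 1, stiff 0 h replicates 1 or 2 or stiff 12 h replicates 1 or 2 (adjusted p between 0.0576 and 0.206). In PD03 removal *Ephb3* ranged from 23.8 to 30.7 CPM and was not called. *Ephb6*, a member of the family without kinase activity, ranged from 5.33 to 9.49 CPM in PD03 removal and 2.73 to 4.72 CPM in CHIRON removal and was not called in any comparison.

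Among the ephrin-A ligands, *Efna4* moved in both directions after PD03 removal. It measured 17.1 and 17.2 CPM at 0 h, then 12 and 12.7 at 2 h, then 23.2 and 23 at 12 h on soft substrates. Its libraries on stiff substrates held 18.8 and 17.1 CPM at 0 h, then 11 and 11.1 at 2 h, then 23.8 and 23.6 at 12 h, so that the libraries at 2 h were the lowest and those at 12 h the highest on both. Soft and stiff log2 fold changes were 0.43 ± 0.10 (adjusted p = 0.00158) and 0.40 ± 0.10 (adjusted p = 0.00196), both kept without each library. In CHIRON removal it ranged from 6.21 to 9.41 CPM and was not called. Exons of *Efna4* share 10.5% of their length with an antisense transcript.

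*Efna2* rose after CHIRON removal, from 8.81 and 9.5 CPM at 0 h to 17.8 and 17.9 CPM at 12 h on soft and from 9.33 and 9.83 CPM at 0 h to 17 and 14.7 CPM at 12 h on stiff substrates, with 11.3 and 10.8 CPM on soft and 11.6 CPM on stiff substrates at 2 h. The changes at 12 h were, on the log2 scale, 0.96 ± 0.13 (adjusted p = 4.56e-05) and 0.73 ± 0.13 (adjusted p = 0.000845), both kept without each library. In PD03 removal it ranged from 1.96 to 4.62 CPM and was not called. *Efna1* fell on stiff substrates after PD03 removal, with 1.95 and 2.55 CPM at 0 h, then 1.37 and 1.51 at 2 h, then 0.864 and 0.989 at 12 h, a log2 change of -1.29 ± 0.38 (adjusted p = 0.0081). On soft substrates it measured 2.01 and 1.9 CPM at 0 h, then 2.28 and 1.91 at 2 h, then 1.65 and 0.651 at 12 h, at a log2 change of -0.78 ± 0.37 (adjusted p = 0.112), and in CHIRON removal it ranged from 0.161 to 1.21 CPM and was not called. For *Efna1*, both 12 h libraries lay below those at 0 h on each substrate. The call of *Efna1* was lost without stiff 0 h replicate 2 or stiff 12 h replicate 1 (adjusted p between 0.0769 and 0.0996). *Efna3* (5.92 to 10.9 CPM in PD03 removal, 6.98 to 9.98 CPM in CHIRON removal) and *Efna5* (0.575 to 1.9 and 0.556 to 2.22 CPM) were called in neither experiment.

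Of the ephrin-B ligands other than *Efnb1*, *Efnb2* rose on stiff substrates after PD03 removal, measuring 3.05 and 2.7 CPM at 0 h, then 3.26 and 4.1 at 2 h, then 5.83 and 4.12 at 12 h, a log2 change of 0.81 ± 0.23 (adjusted p = 0.0064). On soft substrates its libraries of 3.39 and 4.5 CPM at 0 h, then 3.85 and 3.9 at 2 h, then 4.47 and 4.17 at 12 h overlapped, at a log2 change of 0.13 ± 0.22 (adjusted p = 0.694). In CHIRON removal *Efnb2* ranged from 5.95 to 7.59 CPM and was not called. *Efnb3* measured 7.07 and 5.9 CPM at 0 h, then 5.49 and 5.96 at 2 h, then 6.94 and 9.12 at 12 h on soft substrates after PD03 removal. For stiff substrates the levels were 8.31 and 5.98 CPM at 0 h, then 6 and 5.47 at 2 h, then 9.5 and 9.56 at 12 h. For *Efnb3*, the 12 h libraries lay above those at 0 h on stiff substrates and overlapped them on soft. It rose on stiff substrates by a log2 change of 0.43 ± 0.17 (adjusted p = 0.0497). The CHIRON removal values were 5.86 and 5.51 CPM at 0 h, then 6.15 and 10.0 at 2 h, then 6.78 and 8 at 12 h on soft substrates. Stiff values stood at 4.23 and 4.35 CPM at 0 h, then 4.45 at 2 h, then 7.13 and 8.05 at 12 h. *Efnb3* was higher in every 12 h library than at 0 h on the same substrate. It rose on stiff substrates, with a log2 change of 0.82 ± 0.22 (adjusted p = 0.0151). On soft substrates the log2 fold changes of *Efnb3* were 0.31 ± 0.18 (adjusted p = 0.206) and 0.37 ± 0.21 (adjusted p = 0.255). The call of *Efnb2* was lost without stiff 0 h replicate 2 or stiff 12 h replicate 1 (adjusted p between 0.0664 and 0.188), and those of *Efnb3* without soft 2 h replicates 1 or 2, stiff 0 h replicate 2 or stiff 12 h replicates 1 or 2 (adjusted p between 0.0514 and 0.51) after PD03 removal and without stiff 0 h replicates 1 or 2 or stiff 12 h replicate 2 (adjusted p between 0.0541 and 0.122) after CHIRON removal.

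**Figure D3:**
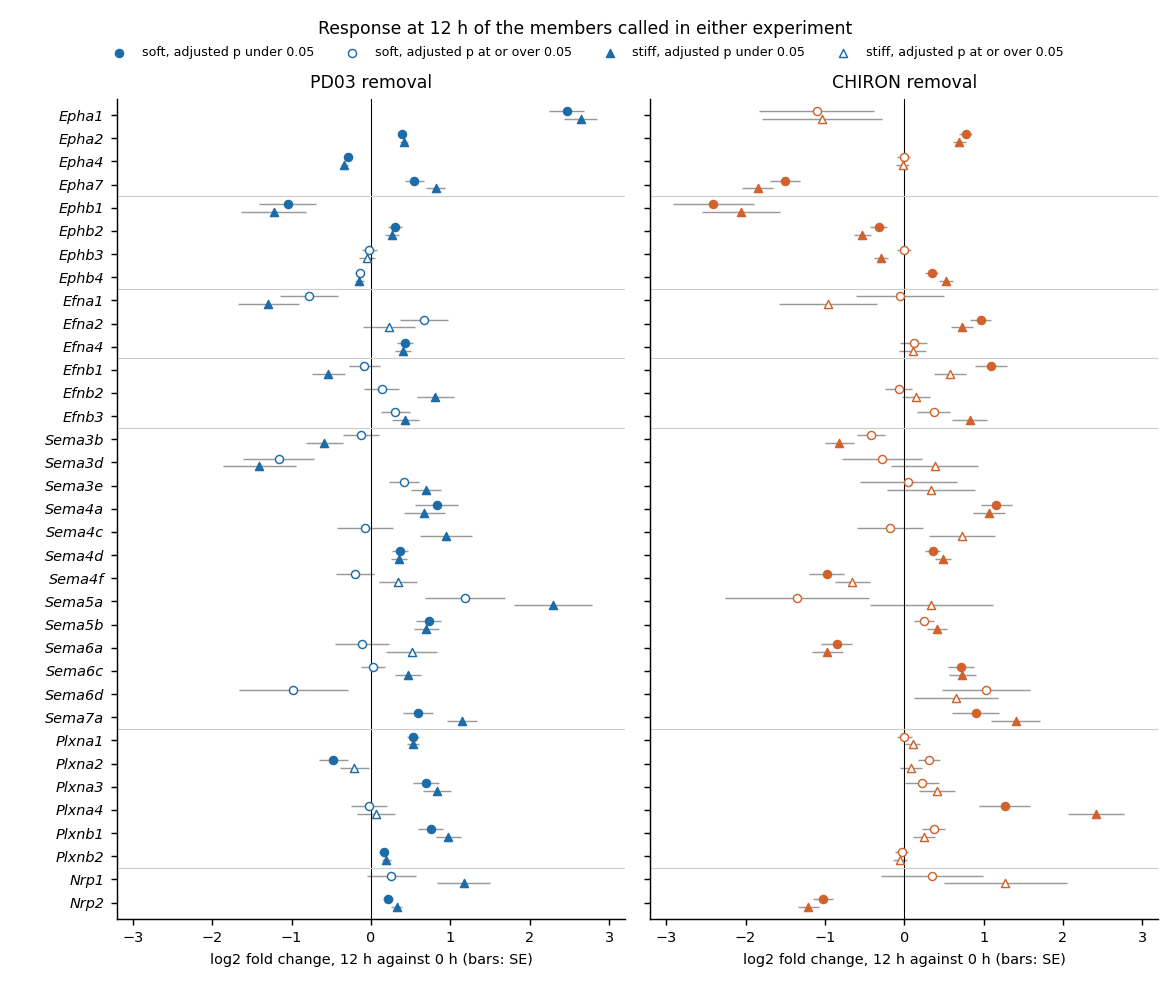
Log2 fold change at 12 h against 0 h of each member called in either experiment at that time, in PD03 removal (left) and CHIRON removal (right), with circles for soft, triangles for stiff, bars for the standard error and filled points for an adjusted p under 0.05. The left panel holds 14 members that rose on both substrates, led by *Epha1*, and the right panel 8 that rose and 5 that fell on both. No share of all genes was counted for both substrates together. The point of *Sema6d* on stiff substrates after PD03 removal is not drawn, as it had no count at 12 h.

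Among the semaphorins, *Sema4a*, *Sema4d* and *Sema7a* rose on both substrates after both removals. *Sema7a*, which is held by a lipid anchor and binds β1 integrin and plexin-C1, measured 4.54 and 4.56 CPM at 0 h, then 4.13 and 5.09 at 2 h, then 7.29 and 6.45 at 12 h on soft substrates after PD03 removal. The stiff libraries measured 4.74 and 3.58 CPM at 0 h, then 6.39 and 5.39 at 2 h, then 10.0 and 8.08 at 12 h. For *Sema7a*, both 12 h libraries lay above those at 0 h on each substrate. At 12 h, the fitted log2 fold changes were 0.59 ± 0.19 (adjusted p = 0.0191) and 1.14 ± 0.19 (adjusted p = 1.71e-05). Levels after CHIRON removal were 3.15 and 1.6 CPM at 0 h, then 1.77 and 1.39 at 2 h, then 4.05 and 4.8 at 12 h on soft substrates. Stiff substrates gave 1.9 and 1.63 CPM at 0 h, then 2.59 at 2 h, then 4.57 and 4.8 at 12 h. *Sema7a* groups did not overlap on either substrate, with 12 h the higher. At 12 h, the fitted log2 fold changes were 0.90 ± 0.29 (adjusted p = 0.0416) and 1.40 ± 0.31 (adjusted p = 0.00387). The rises on stiff substrates were larger than those on soft in value, with no called difference. Both calls on soft substrates were lost with single libraries, for PD03 removal without soft 0 h replicates 1 or 2 or soft 12 h replicate 1 (adjusted p between 0.076 and 0.137) and for CHIRON removal without soft 0 h replicate 2, soft 12 h replicates 1 or 2 or stiff 12 h replicates 1 or 2 (adjusted p between 0.0601 and 0.379).

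*Sema4a*, a membrane semaphorin that binds plexin-B and plexin-D receptors, measured 1.61 and 2.92 CPM at 0 h, then 2 and 1.67 at 2 h, then 3.92 and 4.04 at 12 h on soft substrates after PD03 removal. Stiff gels gave 2.79 and 2.8 CPM at 0 h, then 3.26 and 2.01 at 2 h, then 4.54 and 4.37 at 12 h. *Sema4a* was higher in every 12 h library than at 0 h on the same substrate. Log2 fold changes at 12 h were 0.83 ± 0.27 (adjusted p = 0.0199) and 0.67 ± 0.26 (adjusted p = 0.0386). In CHIRON removal it measured 6.3 and 4.77 CPM at 0 h, then 5.97 and 4.23 at 2 h, then 11.7 and 13 at 12 h on soft substrates. The level on stiff gels was 4.12 and 5.6 CPM at 0 h, then 5.28 at 2 h, then 10.1 and 10.3 at 12 h. For *Sema4a*, both 12 h libraries lay above those at 0 h on each substrate. There it rose by a log2 change of 1.16 ± 0.19 (adjusted p = 0.000384) and 1.06 ± 0.20 (adjusted p = 0.00127), and both calls were kept without each library and with the left-out library in the fit. The calls after PD03 removal were lost without soft 0 h replicate 1 or soft 12 h replicates 1 or 2 (adjusted p between 0.0664 and 0.306) and without stiff 0 h replicates 1 or 2 or stiff 12 h replicates 1 or 2 (adjusted p between 0.103 and 0.152).

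*Sema4d*, the ligand of plexin-B1, measured 19.4 and 18.3 CPM at 0 h, then 19.1 and 21.1 at 2 h, then 25.4 and 23.2 at 12 h on soft substrates after PD03 removal. With stiff substrates the libraries gave 17 and 18.4 CPM at 0 h, then 18.3 and 19.1 at 2 h, then 22.8 and 22.8 at 12 h. *Sema4d* groups did not overlap on either substrate, with 12 h the higher. It rose by a log2 change of 0.36 ± 0.10 (adjusted p = 0.00588) and 0.36 ± 0.10 (adjusted p = 0.0059). In CHIRON removal it measured 38.8 and 37.7 CPM at 0 h, then 40.7 and 36.5 at 2 h, then 48.1 and 50.1 at 12 h on soft substrates. Stiff values stood at 36.2 and 37.9 CPM at 0 h, then 39.7 at 2 h, then 55.6 and 48.3 at 12 h. *Sema4d* was higher in every 12 h library than at 0 h on the same substrate. It rose by a log2 change of 0.36 ± 0.10 (adjusted p = 0.0147) and 0.49 ± 0.10 (adjusted p = 0.00167). The 4 fitted values of *Sema4d* were close to each other. The calls after PD03 removal were lost without soft 0 h replicate 2 or soft 12 h replicate 1 (adjusted p between 0.0567 and 0.0793) and without stiff 0 h replicate 1 (adjusted p = 0.0543), and that on soft substrates after CHIRON removal without soft 0 h replicate 2 or soft 12 h replicate 2 (adjusted p between 0.0793 and 0.109).

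*Sema6c*, a transmembrane semaphorin of class 6, rose on stiff substrates after PD03 removal and on both after CHIRON removal. It measured 8.11 and 8.49 CPM at 0 h, then 6.49 and 5.65 at 2 h, then 7.91 and 8.99 at 12 h on soft substrates in the former. The stiff libraries measured 5.91 and 6.52 CPM at 0 h, then 5.74 and 6.54 at 2 h, then 8.21 and 9.07 at 12 h. Groups of 0 h and 12 h overlapped on soft substrates, and on stiff the 12 h libraries were above. By 12 h the log2 fold changes were 0.03 ± 0.15 (adjusted p = 0.916) and 0.46 ± 0.16 (adjusted p = 0.0236). In the latter it measured 20.5 and 22.7 CPM at 0 h, then 21.9 and 20.9 at 2 h, then 32.9 and 38.3 at 12 h on soft substrates. Stiff substrates gave 25.8 and 15.2 CPM at 0 h, then 17.6 at 2 h, then 31.9 and 36.2 at 12 h. For *Sema6c*, both 12 h libraries lay above those at 0 h on each substrate. Soft and stiff log2 fold changes were 0.71 ± 0.16 (adjusted p = 0.00544) and 0.73 ± 0.17 (adjusted p = 0.0052). Its stiff libraries at 0 h of CHIRON removal stood further apart than those of other groups. The calls were lost without stiff 0 h replicate 1 or stiff 12 h replicate 2 (adjusted p between 0.114 and 0.148) in PD03 removal, and without soft 0 h replicate 1 (adjusted p = 0.0593) on soft and without stiff 0 h replicate 2 or stiff 12 h replicate 2 (adjusted p between 0.063 and 0.0753) on stiff substrates in CHIRON removal.

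*Sema5b*, a transmembrane semaphorin that binds plexin-A1 and plexin-A3, measured 6.5 and 5.58 CPM at 0 h, then 5.99 and 6.44 at 2 h, then 10.5 and 9.64 at 12 h on soft substrates after PD03 removal. Among stiff libraries the values were 5.59 and 6.52 CPM at 0 h, then 5.35 and 5.61 at 2 h, then 9.14 and 10.7 at 12 h. *Sema5b* groups did not overlap on either substrate, with 12 h the higher. It rose by a log2 change of 0.73 ± 0.16 (adjusted p = 0.000864) and 0.70 ± 0.16 (adjusted p = 0.000986), both kept without each library. In CHIRON removal it measured 13.3 and 14.7 CPM at 0 h, then 14.7 and 13.4 at 2 h, then 17.3 and 15.7 at 12 h on soft substrates. Stiff libraries stood at 14.5 and 13 CPM at 0 h, then 13.5 at 2 h, then 18.8 and 17.7 at 12 h. *Sema5b* was higher in every 12 h library than at 0 h on the same substrate. It rose on stiff substrates, by a log2 change of 0.41 ± 0.13 (adjusted p = 0.0322), a call lost without stiff 0 h replicate 2 or stiff 12 h replicates 1 or 2 (adjusted p between 0.092 and 0.179), and the value on soft substrates was 0.24 ± 0.12 (adjusted p = 0.205). Its relative *Sema5a* was near the detection limit at 0 h of PD03 removal. It measured 0.403 and 0.444 CPM at 0 h, then 0.356 and 0.318 at 2 h, then 1.1 and 0.847 at 12 h on soft substrates. The stiff gels gave 0.195 and 0.392 CPM at 0 h, then 0.326 and 0.288 at 2 h, then 1.66 and 1.4 at 12 h, where 3 and 8 counts at 0 h became 23 and 17 at 12 h. For *Sema5a*, both 12 h libraries lay above those at 0 h on each substrate. The log2 fold change was 2.30 ± 0.49 (adjusted p = 0.000479) on stiff and 1.19 ± 0.50 (adjusted p = 0.0746), not called, on soft substrates, and the former was kept without each library. In CHIRON removal *Sema5a* ranged from 0 to 1.44 CPM and was not called.

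The secreted class 3 semaphorins moved in both directions. *Sema3e*, which binds plexin-D1 without a neuropilin, measured 4.26 and 5.9 CPM at 0 h, then 3.85 and 5.65 at 2 h, then 6.26 and 7.23 at 12 h on soft substrates after PD03 removal. Stiff values stood at 5.13 and 5.35 CPM at 0 h, then 4.76 and 4.67 at 2 h, then 8.71 and 8.25 at 12 h. *Sema3e* groups did not overlap on either substrate, with 12 h the higher. It rose on stiff substrates by a log2 change of 0.69 ± 0.19 (adjusted p = 0.00396), kept without each library. On soft substrates the value was a log2 change of 0.42 ± 0.19 (adjusted p = 0.102), and in CHIRON removal *Sema3e* ranged from 0.324 to 1.81 CPM and was not called. *Sema3b* measured 4.66 and 4.44 CPM at 0 h, then 2.99 and 2.07 at 2 h, then 3.85 and 4.49 at 12 h on soft substrates after PD03 removal. The stiff libraries measured 6.43 and 4.17 CPM at 0 h, then 3 and 3.09 at 2 h, then 3.24 and 3.71 at 12 h. For *Sema3b*, the 12 h libraries lay below those at 0 h on stiff substrates and overlapped them on soft. It fell on stiff substrates, at a log2 change of -0.59 ± 0.23 (adjusted p = 0.0464). The levels in CHIRON removal were 7.68 and 8.8 CPM at 0 h, then 10.3 and 8.15 at 2 h, then 5.81 and 6.59 at 12 h on soft substrates. Stiff substrates gave 8.46 and 9.24 CPM at 0 h, then 6.81 at 2 h, then 4.82 and 5.22 at 12 h. *Sema3b* groups did not overlap on either substrate, with 12 h the lower. On stiff substrates it fell, with a log2 change of -0.82 ± 0.18 (adjusted p = 0.00396), a call kept without each library. The log2 fold changes of *Sema3b* on soft substrates, -0.12 ± 0.23 (adjusted p = 0.727) and -0.42 ± 0.17 (adjusted p = 0.11), did not pass. *Sema3d* fell on stiff substrates after PD03 removal, with 1.75 and 1.37 CPM at 0 h, then 0.783 and 1.65 at 2 h, then 0.432 and 0.742 at 12 h, a log2 change of -1.41 ± 0.46 (adjusted p = 0.0156), and measured 1.21 and 1.52 CPM at 0 h, then 1.71 and 1.59 at 2 h, then 0.55 and 0.651 at 12 h on soft substrates, at -1.16 ± 0.45 (adjusted p = 0.0512). *Sema3d* was lower in every 12 h library than at 0 h on the same substrate. In CHIRON removal *Sema3d* ranged from 0.512 to 1.6 CPM and was not called. The calls after PD03 removal were lost without soft 0 h replicates 1 or 2, stiff 0 h replicate 1 or stiff 12 h replicates 1 or 2 (adjusted p between 0.051 and 0.485) for *Sema3b* and without stiff 0 h replicate 1 or stiff 12 h replicate 1 (adjusted p between 0.0871 and 0.175) for *Sema3d*. *Sema3c* (0.144 to 0.863 and 0.0434 to 0.862 CPM in PD03 and CHIRON removal) and *Sema3f* (0.697 to 2.15 and 0.975 to 2.36 CPM) were not called.

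*Sema6a*, the ligand of plexin-A2 and plexin-A4, fell after CHIRON removal. It measured 10.5 and 10.9 CPM at 0 h, then 12.8 and 11.3 at 2 h, then 6.71 and 4.93 at 12 h on soft substrates. Stiff gels gave 10.1 and 15.2 CPM at 0 h, then 15.6 at 2 h, then 5.9 and 7.03 at 12 h. For *Sema6a*, both 12 h libraries lay below those at 0 h on each substrate. The changes at 12 h were, on the log2 scale, -0.85 ± 0.20 (adjusted p = 0.0054) and -0.97 ± 0.20 (adjusted p = 0.00192). In PD03 removal it ranged from 1.17 to 3.02 CPM and was not called. *Sema4f* measured 7.38 and 6.12 CPM at 0 h, then 7.37 and 5.9 at 2 h, then 3.63 and 3.14 at 12 h on soft substrates in CHIRON removal. The level on stiff gels was 6.29 and 6.09 CPM at 0 h, then 5.98 at 2 h, then 3.23 and 4.64 at 12 h. *Sema4f* groups did not overlap on either substrate, with 12 h the lower. It fell on soft substrates, at a log2 change of -0.98 ± 0.22 (adjusted p = 0.00429), and on stiff substrates the value of -0.66 ± 0.22 (adjusted p = 0.0505) missed the threshold. In PD03 removal *Sema4f* ranged from 2.39 to 4.1 CPM and was not called. The calls of *Sema6a* were lost without soft 12 h replicate 2 (adjusted p = 0.0574) and without stiff 0 h replicate 2 (adjusted p = 0.0532), and that of *Sema4f* without soft 0 h replicate 1 (adjusted p = 0.0679).

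*Sema4c*, a ligand of plexin-B2, rose on stiff substrates after PD03 removal, with 1.36 and 1.57 CPM at 0 h, then 2.41 and 1.08 at 2 h, then 2.38 and 3.38 at 12 h, a log2 change of 0.95 ± 0.33 (adjusted p = 0.0243) that was lost without stiff 0 h replicates 1 or 2 or stiff 12 h replicate 2 (adjusted p between 0.0719 and 0.238). On soft substrates it measured 1.61 and 1.78 CPM at 0 h, then 1.92 and 1.59 at 2 h, then 1.65 and 1.56 at 12 h, at a log2 change of -0.07 ± 0.35 (adjusted p = 0.902), and in CHIRON removal it ranged from 0.761 to 2.62 CPM and was not called. For *Sema4c*, the 12 h libraries lay above those at 0 h on stiff substrates and overlapped them on soft. Exons of *Sema4c* share 7.27% of their length with a transcript on the opposite strand. *Sema6d* measured 0.92 and 0.254 CPM at 0 h, then 0.57 and 0.795 at 2 h, then 0.138 and 0.456 at 12 h on soft substrates after PD03 removal. With stiff substrates the libraries gave 0.39 and 0.392 CPM at 0 h, then 0.587 and 0.503 at 2 h, then 0 and 0 at 12 h. Groups of 0 h and 12 h overlapped on soft substrates, and on stiff the 12 h libraries were below. With 6 and 8 counts at 0 h and none in either library at 12 h, its level on stiff substrates was at least 1.69-fold lower at 12 h (3 counts per library as the limit that a count of 0 allows, adjusted p = 0.0102). That call was lost without stiff 12 h replicates 1 or 2 (adjusted p between 0.0604 and 0.0745), and on soft substrates the libraries overlapped. In CHIRON removal *Sema6d* ranged from 0.244 to 1.44 CPM and was not called. The abundant *Sema4b* ranged from 122 to 138 CPM in PD03 removal and 120.2 to 154 CPM in CHIRON removal and was not called within either. *Sema4g* (2.52 to 5.84 and 11 to 15.6 CPM) and *Sema6b* (0.499 to 2.38 and 1.55 to 3.33 CPM) were also not called.

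Among the plexins, 4 rose on both substrates after PD03 removal. *Plxna1*, a receptor of class 3 semaphorins together with neuropilins, measured 101 and 104 CPM at 0 h, then 110.0 and 101 at 2 h, then 139 and 158 at 12 h on soft substrates. Stiff values stood at 88.9 and 109 CPM at 0 h, then 102 and 118 at 2 h, then 148 and 140.4 at 12 h. *Plxna1* was higher in every 12 h library than at 0 h on the same substrate. By 12 h the log2 fold changes were 0.53 ± 0.07 (adjusted p = 2.86e-06) and 0.54 ± 0.08 (adjusted p = 1.83e-06), both kept without each library. In CHIRON removal it ranged from 248 to 296 CPM, with overlapping groups and log2 fold changes of 0.00 ± 0.09 (adjusted p = 1) and 0.11 ± 0.09 (adjusted p = 0.497). Exons of *Plxna1* share 10.7% of their length with an antisense transcript. *Plxna3* measured 6.56 and 5.45 CPM at 0 h, then 4.7 and 4.61 at 2 h, then 9.01 and 10.4 at 12 h on soft substrates after PD03 removal. The stiff libraries measured 4.87 and 4.42 CPM at 0 h, then 5.22 and 4.67 at 2 h, then 8.71 and 7.75 at 12 h. For *Plxna3*, both 12 h libraries lay above those at 0 h on each substrate. It rose by a log2 change of 0.69 ± 0.16 (adjusted p = 0.00174) and 0.83 ± 0.17 (adjusted p = 0.000364), both kept without each library. In CHIRON removal it ranged from 5.32 to 11.1 CPM and was not called.

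*Plxnb1*, the receptor of *Sema4d*, measured 7.02 and 8.88 CPM at 0 h, then 10.2 and 9.7 at 2 h, then 13.4 and 13.3 at 12 h on soft substrates after PD03 removal. Stiff substrates gave 6.43 and 8.83 CPM at 0 h, then 9.98 and 7.98 at 2 h, then 13.5 and 17 at 12 h. *Plxnb1* groups did not overlap on either substrate, with 12 h the higher. It rose by log2 fold changes of 0.75 ± 0.16 (adjusted p = 0.000631) and 0.97 ± 0.16 (adjusted p = 1.56e-05), both kept without each library, whereas in CHIRON removal it ranged from 9.1 to 13.5 CPM, with log2 fold changes of 0.37 ± 0.14 (adjusted p = 0.0808) and 0.25 ± 0.14 (adjusted p = 0.259). *Plxnb2* measured 97.4 and 98.1 CPM at 0 h, then 102 and 91.2 at 2 h, then 111 and 107 at 12 h on soft substrates after PD03 removal. Among stiff libraries the values were 97.9 and 101 CPM at 0 h, then 101 and 101 at 2 h, then 116 and 112 at 12 h. *Plxnb2* was higher in every 12 h library than at 0 h on the same substrate. Its rise was small, at a log2 change of 0.16 ± 0.06 (adjusted p = 0.0308) and 0.19 ± 0.06 (adjusted p = 0.00726), and the calls were lost without soft 0 h replicates 1 or 2 or soft 12 h replicates 1 or 2 (adjusted p between 0.0582 and 0.171) on soft and without stiff 0 h replicate 1 or stiff 12 h replicate 1 (adjusted p between 0.0593 and 0.0942) on stiff substrates. In CHIRON removal *Plxnb2* ranged from 111 to 130.2 CPM and was not called.

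*Plxna4* rose after CHIRON removal. Its log2 fold change on stiff substrates was the largest rise of the members called there, close in size to the fall of *Ephb1* on soft substrates (-2.40). *Plxna4* measured 1.53 and 1.82 CPM at 0 h, then 2.01 and 0.911 at 2 h, then 3.82 and 4.29 at 12 h on soft substrates. Stiff libraries stood at 0.76 and 1.3 CPM at 0 h, then 0.648 at 2 h, then 5.54 and 5.54 at 12 h. For *Plxna4*, both 12 h libraries lay above those at 0 h on each substrate. Soft and stiff log2 fold changes were 1.26 ± 0.32 (adjusted p = 0.0112) and 2.42 ± 0.35 (adjusted p = 8.12e-05), the latter kept without each library and the former lost without soft 0 h replicates 1 or 2 or soft 12 h replicate 2 (adjusted p between 0.0527 and 0.0864). In PD03 removal *Plxna4* ranged from 2.97 to 4.83 CPM, with overlapping groups and log2 fold changes of -0.03 ± 0.22 (adjusted p = 0.946) and 0.07 ± 0.24 (adjusted p = 0.851). *Plxna2*, which with *Plxna4* binds class 6 semaphorins, measured 9.37 and 6.91 CPM at 0 h, then 8.7 and 8.99 at 2 h, then 5.23 and 6.51 at 12 h on soft substrates after PD03 removal. The stiff gels gave 7.8 and 7.9 CPM at 0 h, then 5.61 and 7.48 at 2 h, then 6.19 and 7.42 at 12 h. *Plxna2* was lower in every 12 h library than at 0 h on the same substrate. It fell on soft substrates, at a log2 change of -0.47 ± 0.18 (adjusted p = 0.0491), a call lost without soft 0 h replicate 1, soft 12 h replicate 1, soft 2 h replicates 1 or 2, stiff 0 h replicates 1 or 2 or stiff 12 h replicates 1 or 2 (adjusted p between 0.0515 and 0.494), and the value on stiff substrates was -0.21 ± 0.18 (adjusted p = 0.386). In CHIRON removal *Plxna2* ranged from 11.1 to 15.4 CPM and was not called. The low *Plxnc1* (1.15 to 3.78 and 1.03 to 2.64 CPM in PD03 and CHIRON removal), *Plxnd1* (0.69 to 1.38 and 2.57 to 4.38 CPM) and, in CHIRON removal, *Plxnb3* (0.128 to 0.746 CPM) were not called.

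*Nrp1*, a co-receptor of class 3 semaphorins and of VEGF, measured 1.5 and 2.22 CPM at 0 h, then 1.57 and 1.43 at 2 h, then 2.13 and 2.28 at 12 h on soft substrates after PD03 removal. Stiff values stood at 0.974 and 1.28 CPM at 0 h, then 2.22 and 1.37 at 2 h, then 2.52 and 2.64 at 12 h. Groups of 0 h and 12 h overlapped on soft substrates, and on stiff the 12 h libraries were above. It rose on stiff substrates, by a log2 change of 1.17 ± 0.33 (adjusted p = 0.00648), lost without stiff 0 h replicate 1 (adjusted p = 0.0542), and the value on soft substrates was 0.26 ± 0.31 (adjusted p = 0.581). Across CHIRON removal it ranged from 0.109 to 1.1 CPM (2 to 20 counts) and was not called, at a log2 change of 0.35 ± 0.64 (adjusted p = 0.772) and 1.27 ± 0.78 (adjusted p = 0.301).

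At 2 h after PD03 removal, few members had changed. On soft substrates 4 of 45 had passed, beside 1.96% of all genes, and on stiff substrates 3, beside 2.73%. The number on soft substrates was 1 without either replicate of soft at 0 h or 2 h, that member being *Epha2*. The comparisons at 2 h and 12 h share their 0 h libraries, so each is given by its own values. *Epha2* rose at 2 h by a log2 change of 0.51 ± 0.05 (adjusted p = 1.23e-07) on soft and 0.71 ± 0.05 (adjusted p = 3.18e-11) on stiff substrates, from 108 and 109 to 157 and 151 CPM and from 121 and 112 to 189.5 and 192 CPM. *Nrp2* rose by a log2 change of 0.26 ± 0.07 (adjusted p = 0.0322) and 0.29 ± 0.06 (adjusted p = 0.00745). *Efna4* fell by 2 h, with log2 fold changes of -0.48 ± 0.11 (adjusted p = 0.0163) and -0.69 ± 0.11 (adjusted p = 0.000123), before the higher level at 12 h. *Ephb4* fell on soft substrates, at a log2 change of -0.22 ± 0.06 (adjusted p = 0.0272), and its value on stiff substrates was -0.16 ± 0.06 (adjusted p = 0.166). The calls of *Epha2*, and that of *Efna4* on stiff substrates, were kept without each library. The call of *Efna4* on soft substrates was lost without soft 0 h replicates 1 or 2 or soft 2 h replicates 1 or 2 (adjusted p between 0.074 and 0.201), that of *Ephb4* without soft 0 h replicates 1 or 2 or soft 2 h replicates 1 or 2 (adjusted p between 0.11 and 0.255), and those of *Nrp2* without soft 0 h replicates 1 or 2 or soft 2 h replicates 1 or 2 (adjusted p between 0.0655 and 0.331) on soft and without stiff 0 h replicate 2 or stiff 2 h replicate 2 (adjusted p between 0.119 and 0.146) on stiff substrates. At 2 h after CHIRON removal, 0 of 48 members passed on either substrate by edgeR's quasi-likelihood test or by DESeq2, beside 0.226% of all genes on soft and 0.103% on stiff substrates. On soft substrates 7 of 48 members had an unadjusted p under 0.05 in edgeR's quasi-likelihood test, beside 9.09% of all genes. On stiff substrates 1 library stood for 2 h.

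Between soft and stiff substrates, 1 member passed. *Epha2* differed 2 h after PD03 removal, with less on the soft gels, at 157 and 151 CPM against 189.5 and 192 CPM, a log2 difference of -0.31 ± 0.05 (adjusted p = 0.00254), beside 0.134% of all genes. This call was lost without soft 2 h replicate 2 or stiff 2 h replicate 2 (adjusted p between 0.0584 and 0.102). At 0 h *Epha2* stood at 108 and 109 CPM on soft and 121 and 112 CPM on stiff substrates (log2 difference -0.10 ± 0.05, adjusted p = 0.725), and at 12 h at 139 and 145 and 157 and 154 CPM (log2 difference -0.13 ± 0.05, adjusted p = 0.352). In CHIRON removal the log2 differences of *Epha2* were -0.17 ± 0.08, -0.01 ± 0.10 and -0.09 ± 0.08 at 0 h, 2 h and 12 h, none called. For the rest, 0 members passed between substrates at 0 h or 12 h of PD03 removal or at any time of CHIRON removal, by edgeR's quasi-likelihood test and by DESeq2. The share of all genes called was 0.0298% at 0 h and 0.767% at 12 h of PD03 removal, and 0% at each time of CHIRON removal. In edgeR's quasi-likelihood test, 4, 2 and 9 of 45 members had an unadjusted p under 0.05 at 0 h, 2 h and 12 h of PD03 removal. The shares of all genes were 7.22%, 8.55% and 9.65%. In CHIRON removal 2 of 48 members did so at 0 h and 2 at 12 h, beside 3.48% and 3.22% of all genes. The 9 members at 12 h of PD03 removal included *Ephb6*, higher on soft substrates by a log2 difference of 0.45 ± 0.17 (adjusted p = 0.293), and *Sema7a*, with a log2 difference of -0.40 ± 0.18 (adjusted p = 0.432), both outside the threshold.

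The response at 12 h was also compared between substrates within the model. By edgeR's quasi-likelihood test and by DESeq2, 0 members passed in either experiment, beside 0% of all genes in PD03 removal and 0% in CHIRON removal. In the former test 4 and 2 members had an unadjusted p under 0.05, beside 6.71% and 2.84% of all genes. The median standard error of this difference was 0.29 log2 units in both experiments, so that a difference of that size would not have been detectable in a typical member. *Sema4c*, which rose on stiff substrates alone, differed in response by -1.02 ± 0.48 soft minus stiff (unadjusted p = 0.0442, edgeR's quasi-likelihood test), and *Efnb2* by -0.67 ± 0.32 (unadjusted p = 0.0445). In CHIRON removal *Plxna4* differed by -1.16 ± 0.49 (unadjusted p = 0.0292). The calls on 1 substrate at 12 h, which were 14 in PD03 removal and 6 in CHIRON removal, do not by themselves show a difference between substrates.

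The responses to the removals were compared in 1 model of both experiments, in which each experiment kept its own 0 h libraries and the mean response of soft and stiff substrates was tested. Of the 48 members, 23 (47.9%) differed at 12 h, beside 36.1% of all 14759 genes tested. For 13 the response to PD03 removal was higher (18.6% of all genes) and for 10 it was lower (17.5%). Because a call in this test was part of how the members shown first were chosen, their values here are no separate support. The 5 members shown first had log2 differences (PD03 removal minus CHIRON removal) of 2.35 ± 0.16 (adjusted p = 5.36e-12) for *Epha7*, 1.39 ± 0.10 (adjusted p = 6.41e-12) for *Nrp2*, 0.71 ± 0.10 (adjusted p = 1.53e-06) for *Ephb2*, -0.58 ± 0.07 (adjusted p = 1.35e-07) for *Ephb4* and -1.15 ± 0.19 (adjusted p = 3.26e-05) for *Efnb1*. Members called at 12 h in 1 experiment alone included *Epha1*, with the largest positive log2 difference at 3.63 ± 0.44 (adjusted p = 2.06e-07), *Plxna4* at -1.82 ± 0.28 (adjusted p = 1.09e-05) and *Sema6a* at 1.11 ± 0.27 (adjusted p = 0.00201). The difference of *Epha1* includes a mean response of -1.07 after CHIRON removal, which was not called and rests on 4 to 20 counts per library. *Sema5a* differed by a log2 difference of 2.24 ± 0.67 (adjusted p = 0.00972) at low counts, and *Sema4f* by 0.88 ± 0.22 (adjusted p = 0.00259).

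Among the plexins, the log2 response to PD03 removal was higher for *Plxna1* (0.48 ± 0.10, adjusted p = 0.000272), *Plxnb1* (0.55 ± 0.16, adjusted p = 0.00658) and *Plxnb2* (0.22 ± 0.07, adjusted p = 0.0166), and lower for *Plxna2* (-0.54 ± 0.16, adjusted p = 0.0108). *Epha2*, which rose after both removals, rose less after PD03 removal, with a log2 difference of -0.33 ± 0.07 (adjusted p = 0.000256), and *Epha4* differed by -0.30 ± 0.07 (adjusted p = 0.000755). Calls that rested on single libraries were those of *Plxna2*, lost without PD03 soft 0 h replicate 1 (adjusted p = 0.0581), and of *Sema4b*, with a log2 difference of -0.20 ± 0.07 (adjusted p = 0.0211) that was lost without CHIRON soft 0 h replicate 2, CHIRON soft 12 h replicate 2, CHIRON stiff 12 h replicate 1 or PD03 stiff 12 h replicate 2 (adjusted p between 0.059 and 0.0813). *Efna3* (0.44 ± 0.17, adjusted p = 0.0475) was lost in 10 of 16 fits that each left out 1 library (adjusted p between 0.058 and 0.15), *Sema3d* (-1.34 ± 0.50, adjusted p = 0.037) in 9 of 16 fits that each left out 1 library (adjusted p between 0.054 and 0.27), *Sema4g* (0.54 ± 0.22, adjusted p = 0.0499) in 9 of 16 fits that each left out 1 library (adjusted p between 0.0546 and 0.207), *Sema5b* (0.39 ± 0.14, adjusted p = 0.027) in 7 of 16 fits that each left out 1 library (adjusted p between 0.0506 and 0.085) and *Sema6c* (-0.48 ± 0.17, adjusted p = 0.0333) in 8 of 16 fits that each left out 1 library (adjusted p between 0.0675 and 0.091). For *Sema6d* the fitted log2 difference of -4.16 ± 1.02 (adjusted p = 0.00218) rests on 2 libraries without a count and is no measure of size. The other 16 calls were kept without each library. For *Ephb1*, *Sema4a*, *Sema4d* and *Sema7a*, which had moved the same way after both removals, the log2 differences were 1.09 ± 0.47 (adjusted p = 0.0685), -0.36 ± 0.24 (adjusted p = 0.262), -0.06 ± 0.09 (adjusted p = 0.644) and -0.29 ± 0.24 (adjusted p = 0.389), none called.

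**Figure D4:**
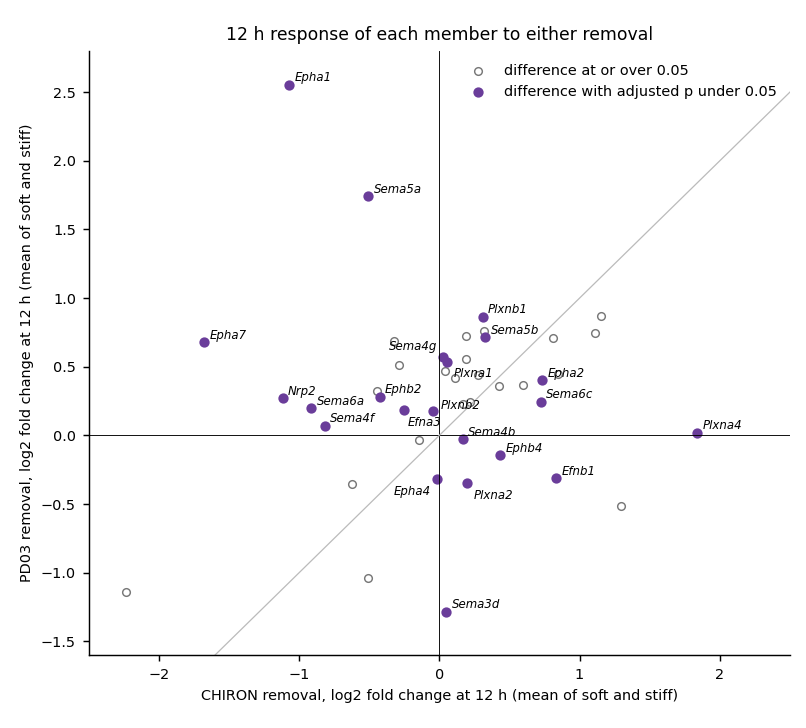
Mean log2 fold change at 12 h over soft and stiff substrates after PD03 removal (vertical axis) and after CHIRON removal (horizontal axis) for each member tested in both, with filled, named points for an adjusted p of the difference under 0.05 and a grey line where both responses are equal. *Epha7*, *Nrp2* and *Ephb2* lie in the quadrant that is up after PD03 removal and down after CHIRON removal, *Ephb4* and *Efnb1* in the opposite one, and *Epha1* stands highest, whereas *Sema6d* is not drawn.

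The other genes of these pathways were read from lists that were chosen with earlier results of these data known. The shares of all genes called are in brackets. Genes given with a fold change are among the 4 with the smallest adjusted p of a list in an experiment, so they do not stand for their list. Values of listed genes are log2 fold changes ± standard error at 12 h, on soft and then on stiff substrates. Of the 28 genes listed for Eph signalling (adaptors, kinases and exchange factors), 25 were tested in PD03 removal. On soft substrates 7 rose and 4 fell (14.1% and 15.3% of all genes), and on stiff 5 rose and 5 fell (18.5% and 19.9%). The lipid phosphatase gene *Inppl1* changed by a log2 change of 0.38 ± 0.06 and 0.46 ± 0.06 (adjusted p = 1.43e-05 and 8.25e-07, edgeR's quasi-likelihood test), the scaffold gene *Pick1* by 0.34 ± 0.07 and 0.46 ± 0.07, and the Src family kinase gene *Yes1* by -0.23 ± 0.05 and -0.25 ± 0.05. Of 26 tested in CHIRON removal, 2 rose and 1 fell on soft substrates (9.18% and 8.63% of all genes), and 3 rose and 1 fell on stiff (8.46% and 8.33%). *Inppl1* rose by 0.38 ± 0.09 and 0.41 ± 0.09, and *Yes1* fell, at -0.39 ± 0.08 and -0.49 ± 0.08. *Inppl1* and *Yes1* thus kept their direction in all 4 comparisons.

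Of the 28 genes listed for semaphorin and plexin signalling, 26 were tested in PD03 removal. On soft substrates 3 rose and 1 fell (14.1% and 15.3% of all genes), and on stiff 4 rose and 4 fell (18.5% and 19.9%). *Crmp1*, a collapsin response mediator protein that passes on Sema3A signals, rose by 0.79 ± 0.25 on soft and 1.60 ± 0.24 on stiff substrates (adjusted p = 0.0165 and 4.32e-06, edgeR's quasi-likelihood test), and *Limk1*, a kinase that acts on cofilin, by 0.33 ± 0.08 and 0.41 ± 0.08. *Itgb1*, the integrin β1 chain that binds Sema7A, fell, at -0.13 ± 0.05 and -0.21 ± 0.05. In CHIRON removal 28 were tested. On soft substrates 6 rose and 3 fell (9.18% and 8.63% of all genes), and on stiff 4 rose and 3 fell (8.46% and 8.33%). *Mical1*, which oxidises actin downstream of plexins, rose by a log2 change of 0.69 ± 0.09 and 0.65 ± 0.09 (adjusted p = 1.61e-05 and 3.48e-05), *Dpysl4*, a relative of *Crmp1*, by 2.56 ± 0.48 and 1.97 ± 0.47, and *Erbb2*, a partner of B plexins, by 0.37 ± 0.10 and 0.56 ± 0.10. *Farp1* fell, at -0.51 ± 0.10 and -0.51 ± 0.10.

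Of 20 genes of the other guidance families (netrins, slits and their receptors), 11 were tested in PD03 removal, where 3 rose and 2 fell on each substrate. Of all genes, 14.1% rose and 15.3% fell on soft substrates, and 18.5% rose and 19.9% fell on stiff. *Robo4*, a receptor best known in endothelium, rose by a log2 change of 1.27 ± 0.16 and 1.94 ± 0.15 (adjusted p = 4.25e-07 and 2.67e-11, edgeR's quasi-likelihood test), the netrin receptor *Unc5b* by 0.53 ± 0.08 and 0.29 ± 0.08, and *Slit2* fell, at -0.51 ± 0.17 and -0.86 ± 0.18. The ligand *Ntn1* rose by a log2 change of 0.37 ± 0.05 and 0.45 ± 0.05, and after CHIRON removal it fell, at -1.90 ± 0.09 and -1.91 ± 0.09 (adjusted p = 9.15e-11 and 6.1e-11). In CHIRON removal, 1 of 17 fell on soft substrates (8.63% of all genes), and 1 rose and 2 fell on stiff (8.46% and 8.33%). There, on stiff substrates, *Robo2* went from 0 counts in both libraries at 0 h to 7 and 10 counts at 12 h. On soft substrates *Robo2* had 8 and 5 counts at 0 h and 4 and 4 at 12 h, a log2 change of -0.63 ± 0.86 (adjusted p = 0.679, edgeR's quasi-likelihood test).

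The 8 genes taken to check the removals were *Dusp6*, *Etv4*, *Etv5*, *Fos*, *Axin2*, *Lef1*, *Sp5* and *T*. Of these, 5 had risen on each substrate 12 h after PD03 removal, and 6 on soft and 5 on stiff substrates had fallen 12 h after CHIRON removal. These counts pool targets of both pathways and so do not measure either one alone. *Dusp6* rose by 1.13 ± 0.06 on soft and 1.33 ± 0.06 on stiff substrates after PD03 removal (adjusted p = 3.64e-14 and 1.73e-16, edgeR's quasi-likelihood test) and *Etv4* by 1.10 ± 0.05 and 1.22 ± 0.05. After CHIRON removal *Axin2* fell, at -2.65 ± 0.09 and -2.58 ± 0.09, *Sp5* at -6.09 ± 0.13 and -5.80 ± 0.13, and *T* at -4.82 ± 0.30 and -5.91 ± 0.35. *T* rose after PD03 removal, by 1.38 ± 0.12 and 1.57 ± 0.11, as did *Lef1*, by 0.64 ± 0.12 and 0.54 ± 0.12. *Axin2* ranged over 122 to 139 CPM at 0 h and 146 to 160 CPM at 12 h of PD03 removal. *Etv4* fell after CHIRON removal, at -0.80 ± 0.09 and -0.65 ± 0.09.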

How the data were processed

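RNA was sequenced from E14 mESCs on soft and stiff StemBond hydrogels (ribosomal RNA depletion, Nextflex libraries). Per the study's methods and the submitters' processing notes, the authors trimmed reads with Trim Galore, aligned them to GRCm38/mm10 with TopHat 2.1.0 and counted them per gene with featureCounts 1.5.0 and Ensembl 86. The deposited values are raw counts, and the strand setting of the counting is not given in the sources used here, so that overlapping genes on opposite strands (11 members) cannot be told apart where they overlap. In the counts of PD03 removal, 12 columns of other samples were not used, 23 empty lines were left out and 15 identifiers looked like dates. GENCODE M21 matched 34890 of 35022 and 48349 of 48709 genes, of which 19323 and 21695 were protein-coding.

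Samples were grouped by the labels. Each experiment was fitted on protein-coding genes with edgeR 4.0.16 (limma 3.58.1, R 4.3.3; filterByExpr with a minimum count of 10 and a total of 15, TMM, glmQLFit, glmQLFTest) with 1 coefficient per group, and p-values were adjusted over all genes by the Benjamini-Hochberg method, with 0.05 as the threshold. A joint fit compared the removals. Levels are CPM on TMM-scaled library sizes, and per kb on the merged exon length. Total counts per library are given with the samples. The library PD03+LIF, stiff, 2 h, replicate 1 was left out for its depth. Alternatives were DESeq2 1.42.0, its size factors, no filter on low counts, all genes, only the groups compared, blocks by replicate or tube number, the shallow library, each library left out in turn and, chosen after seeing the data, a minimum count met in 2 libraries. The fit was tested on simulated data. Figures were drawn with matplotlib 3.10.9 and tables made with pandas 2.3.3, numpy 2.4.6 and scipy 1.17.1 under Python 3.11.15. Members called in any comparison are given with all libraries, the 12 with the largest changes at 12 h in each experiment and every member called between substrates or removals with full statistics, and of other lists up to 4 genes with the smallest adjusted p at 12 h. The members and lists were chosen with earlier results of these data known. Libraries with the same replicate number did not deviate together, which does not speak to a pairing by tube number.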

Additional observations from a re-analysis of the deposited data

Results flagged for a closer look

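The response at 12 h differed between the removals for 23 members in the joint model (edgeR's quasi-likelihood test, adjusted over all genes). The values below are log2 differences, PD03 removal minus CHIRON removal, ± standard error. The response to PD03 removal was higher for *Epha1* (3.63 ± 0.44), *Epha7* (2.35 ± 0.16), *Sema5a* (2.24 ± 0.67), *Nrp2* (1.39 ± 0.10), *Sema6a* (1.11 ± 0.27), *Sema4f* (0.88 ± 0.22), *Ephb2* (0.71 ± 0.10), *Plxnb1* (0.55 ± 0.16), *Sema4g* (0.54 ± 0.22), *Plxna1* (0.48 ± 0.10), *Efna3* (0.44 ± 0.17), *Sema5b* (0.39 ± 0.14) and *Plxnb2* (0.22 ± 0.07). It was lower for *Sema6d* (-4.16 ± 1.02), *Plxna4* (-1.82 ± 0.28), *Sema3d* (-1.34 ± 0.50), *Efnb1* (-1.15 ± 0.19), *Ephb4* (-0.58 ± 0.07), *Plxna2* (-0.54 ± 0.16), *Sema6c* (-0.48 ± 0.17), *Epha2* (-0.33 ± 0.07), *Epha4* (-0.30 ± 0.07) and *Sema4b* (-0.20 ± 0.07). The value of *Sema6d* rests on libraries without a count and is no measure of size. Of these members, *Epha1*, *Nrp2*, *Sema6a*, *Sema4g*, *Plxna1*, *Sema5b*, *Plxna4* and *Sema6c* were over 2 times apart in level between the experiments at 0 h, and the part of that in these values was not tested.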

How the results depend on the processing

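Of 109 calls of members, 48 kept their direction and their side of the threshold under every alternative run, and none of the 109 was reversed. DESeq2 lost 22 of the calls, and leaving out single libraries lost 51. With the shallow library in the fit, the number of members called at 12 h of CHIRON removal was 4 on soft and 4 on stiff substrates, against 15 and 17 without it. At 2 h of PD03 removal, 1 member passed on soft substrates with DESeq2 against 4, and 5 passed on stiff substrates with no filter on low counts against 3. The cause was not tested. With each library left out in turn, the number called at 12 h of PD03 removal was 10 to 19 on soft and 18 to 29 on stiff substrates, and at 2 h 1 to 4 and 2 to 3. At 12 h of CHIRON removal it was 9 to 15 on soft and 12 to 18 on stiff substrates. Between substrates at 2 h of PD03 removal it was 0 to 1, for the difference between removals 18 to 23, and 0 in the other comparisons.

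Libraries with the same replicate number did not deviate together: the mean correlation of their deviations from group means was -0.00277 over 15 pairs of groups in PD03 removal (-0.0524 to 0.112) and -0.0198 over 10 pairs in CHIRON removal (-0.109 to 0.0713). With the replicate block, 106 of 109 calls were kept, and those lost were *Ephb2* on soft substrates after CHIRON removal (adjusted p = 0.0618), *Efnb3* on stiff substrates after PD03 removal (adjusted p = 0.0521) and *Efna3* between removals (adjusted p = 0.0587), all from edgeR's quasi-likelihood test. In CHIRON removal the replicate numbers do not always match the tube numbers, so this correlation cannot show a pairing by tube. With the tube number as the block there, 13 members passed on soft and 14 on stiff substrates at 12 h, against 15 and 17 without a block. Groups of 2 libraries, and 1 for stiff at 2 h of CHIRON removal, limit all comparisons, and members with under 10 counts per library could be tested in neither experiment.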
